A study of Danio rerio with 6 samples.

Results

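Keratins and epidermal identity genes were followed in RNA of cells sorted from zebrafish embryos for their heart reporter. The set was given as 7 gene names (krt4, krt5, krt8, krt97, epcam, tp63 and cdh1), and 6 of them were matched to a line of the count table by gene identifier or symbol, of 27456 gene lines in all. The identifier of cdh1 had no matching line, so cdh1 is not analysed here. All embryos carried tg(myl7::gfp), a transgene that places green fluorescent protein under the promoter of myl7, a myosin gene of heart muscle, and were raised to 24 hours post fertilization (hpf). Wildtype cells gave 3 libraries, and cells of embryos injected with 2 nl of 0.7 mM Gata4 morpholino gave 3 more. The labels do not say whether wildtype embryos received a control oligomer. Each library came from a pool of about 200 embryos, but separate clutches are not stated. P-values therefore describe the spread between these libraries alone, which may be technical. Wildtype replicates 1 and 2 and morphant replicate 1 were prepared with the mRNA-Seq kit. Wildtype replicate 3 and morphant replicates 2 and 3 were prepared with the TruSeq kit. Library totals ran from 12574486 to 37906530 counts.

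Keratins are the intermediate filament proteins of epithelia, and a filament needs a type I partner and a type II partner. The embryonic skin of the zebrafish has an outer periderm, formed by the enveloping layer, above a basal layer of keratinocytes. In the zebrafish, krt4, krt5, krt17 and cyt1 are known from the enveloping layer and periderm. The keratins krt8 and krt18a.1 form the filament pair of simple epithelia and are found beyond the skin. The transcription factor tp63 marks the basal layer and is required for epidermal fate, and epcam is an adhesion molecule of epithelial cells in skin and other organs. A sort for a heart reporter can also let cells of other types pass. In RNA pooled from many cells, more cells of a type and more RNA per cell cannot be told apart.

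The morphant group is defined by its injected antisense oligomer, a chain of 25 bases, which is shown here from the labels for that reason.
Gata4 morpholino: tccacaggtgagcgattattgcttc
The gene gata4 is itself not analysed here, so the group labels were not checked on it.

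The 6 genes spanned a wide range of levels. On the scale of the deposited RPKM values (counts per length of transcript), wildtype cells had 622 ± 49.8 of krt8, 283 ± 78.5 of krt4 and 90.4 ± 14.6 of epcam (SD, n = 3). The lower levels were 24.3 ± 15.4 RPKM for krt5, 7.54 ± 1.60 RPKM for krt97 and 1.31 ± 0.304 RPKM for tp63 (SD, n = 3). The wildtype libraries kept krt8 above krt4 and krt4 above epcam without overlap, whereas krt5 and krt97 overlapped (7.83 RPKM of krt5 in wildtype replicate 1 and 8.81 RPKM of krt97 in wildtype replicate 3). In the morphant libraries krt4 had 784 ± 853 RPKM and krt8 573 ± 224 RPKM (SD, n = 3), and the order of these genes was not the same in each library. The gene krt4 ranked 10 among all gene lines by RPKM in morphant replicate 1, 485 in morphant replicate 2 and 101 in morphant replicate 3, against ranks of 236 to 278 in wildtype. The gene krt8 stayed between ranks 56 and 153 over the 6 libraries.

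The periderm keratin genes krt4 and krt5 were far above wildtype in 1 morphant library. The level of krt4 was 972, 1555 and 1609 CPM (counts relative to a library total scaled by the TMM method) in wildtype cells and 8417, 672 and 2263 CPM in morphant cells, values being given in the order of replicates 1 to 3 throughout. Morphant replicates 1 and 3 lay above every wildtype library and morphant replicate 2 below every one, so that the groups overlapped. For krt5 the values were 67.0, 312 and 218 CPM in wildtype cells and 2701, 69.6 and 116 CPM in morphant cells. Only morphant replicate 1 stood above the wildtype range, at 13.6 times the wildtype mean, and the other morphant libraries lay inside it. The log2 fold change, morphant minus wildtype in edgeR with a term for kit, came to 1.30 ± 0.73 (SE) for krt4 at an adjusted p of 0.413. For krt5 it came to 1.30 ± 1.25 (SE) at an adjusted p of 0.585. Both estimates turned negative without morphant replicate 1, to -0.21 for krt4 and -1.29 for krt5. Without morphant replicate 2 they were 1.81 for krt4 (edgeR adjusted p = 0.0542) and 2.21 for krt5 (edgeR adjusted p = 0.235). Within the mRNA-Seq libraries, where morphant replicate 1 is the only morphant library, they were 2.67 and 3.76, in a fit that called 22.0% of all genes tested. Within the TruSeq libraries they were -0.24 and -1.32.

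**Figure D1:**
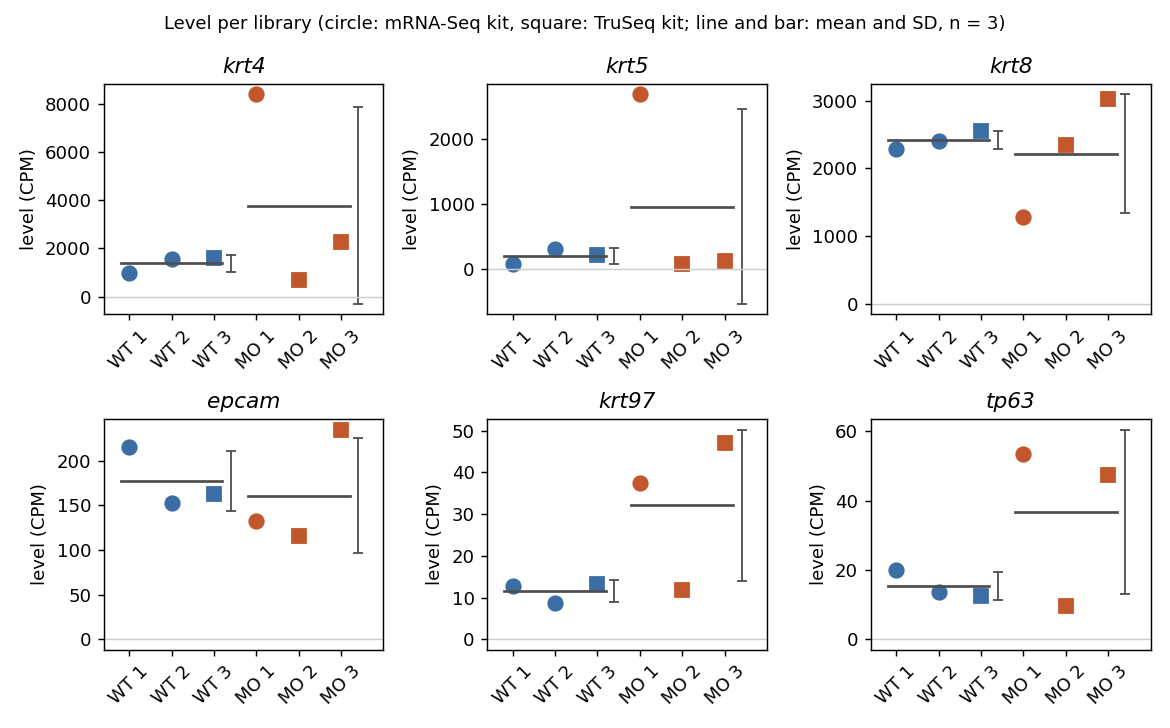
Level of each of the 6 genes in CPM (y axis, linear, a scale per gene) in wildtype (WT) and Gata4 morphant (MO) replicates 1 to 3 (x axis), with circles for the mRNA-Seq kit, squares for the TruSeq kit, and a line and bar for the group mean and SD (n = 3). Morphant replicate 1 stands at 8417 CPM for krt4 and 2701 CPM for krt5, while krt97 and tp63 have their highest values in morphant replicates 1 and 3 and krt8 is lowest in morphant replicate 1.

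The basal layer gene tp63 and the keratin gene krt97 stood above wildtype in morphant replicates 1 and 3, as krt4 did. Relative to the wildtype mean, these libraries held 3.47 and 3.08 times as much tp63, 3.24 and 4.05 times krt97, and 6.10 and 1.64 times krt4. The level of tp63 was 20.0, 13.5 and 12.6 CPM in wildtype cells and 53.4, 9.49 and 47.4 CPM in morphant cells. That of krt97 was 12.8, 8.66 and 13.3 CPM in wildtype cells and 37.5, 11.9 and 47.0 CPM in morphant cells. For both genes morphant replicates 1 and 3 lay above every wildtype library, while morphant replicate 2 was within the wildtype values of krt97 and below those of tp63. These levels rested on 164 to 901 counts of krt97 and 197 to 909 counts of tp63 per library. The group means of tp63 were 15.4 ± 4.03 CPM in wildtype cells and 36.7 ± 23.8 CPM in morphant cells (SD, n = 3 each), and edgeR put the log2 fold change at 1.42 ± 0.61 (SE) with an adjusted p of 0.393. Those of krt97 were 11.6 ± 2.55 and 32.1 ± 18.1 CPM (SD, n = 3 each), and edgeR put it at 1.47 ± 0.56 (SE) with the same adjusted p. Neither gene passed over all libraries. Without morphant replicate 2 both passed in edgeR, with 1.73 (adjusted p = 0.0155) for tp63 and 1.77 (adjusted p = 0.0149) for krt97, in a fit that called 19.7% of all genes tested and 8.19% as higher in morphants. Within the TruSeq libraries, which leave out morphant replicate 1, the log2 fold changes kept a positive sign at 1.05 for tp63 and 1.03 for krt97. Wildtype replicate 3 is the only wildtype library there, and morphant replicate 2 lay below it for both genes. The positive signs within that kit thus rest on morphant replicate 3 alone.

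The simple epithelial keratin krt8 and the adhesion gene epcam had group means closer to each other. The level of krt8 was 2284, 2412 and 2558 CPM in wildtype cells and 1283.5, 2347 and 3028 CPM in morphant cells. Morphant replicate 1, the library with the most krt4, had the least krt8, and morphant replicate 3 had the most. In edgeR krt8 had a log2 fold change of -0.40 ± 0.35 (SE, adjusted p = 0.554), and of -0.0013 with totals as the only scaling. The level of epcam was 215, 152 and 163 CPM in wildtype cells and 132, 115 and 235 CPM in morphant cells. Its morphant libraries lay on both sides of the wildtype range, and edgeR gave a log2 fold change of -0.19 ± 0.41 (SE, adjusted p = 0.823), with a positive sign (0.22) under scaling by totals. A missed threshold does not show that these genes had equal levels in both groups.

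Of the 6 genes, edgeR called 0 at an adjusted p under 0.05, where it called 0.0% of the 18033 genes tested, and the smallest adjusted p of any gene was 0.393. At an unadjusted p under 0.05 the fit held 1 of the 6, krt97, against 12.5% of all genes tested. DESeq2 called 0 of the 6 and 313 genes in all (1.65%), and limma-voom called 0 genes, with 2250 at an unadjusted p under 0.05. The count of genes among the 6 with every morphant library above every wildtype library was 0, as was the count below, where 7.76% and 5.78% of all genes tested did so. The authors' deposited table gives an adjusted p of 2.6e-05 for krt5, 0.111 for krt4, 0.0872 for krt97, 0.231 for tp63, 0.986 for krt8 and 0.974 for epcam. Those values come from the authors' own test and not from the fits above. Of 27456 gene lines, 703 had an adjusted p under 0.05 in the authors' deposited table, krt5 among them. Only morphant replicate 1 lay above the wildtype range of krt5, with 2701 CPM against 69.6 and 116 CPM in morphant replicates 2 and 3.

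The spread within the morphant group set these genes apart from one another. The highest morphant library held 38.8 times the lowest for krt5, 12.5 times for krt4, 5.62 times for tp63 and 3.94 times for krt97. For krt8 and epcam this ratio was 2.36 and 2.04, and its median over all genes tested was 2.33. In wildtype the same ratio was 4.66 for krt5, 1.65 for krt4, 1.59 for tp63, 1.54 for krt97, 1.41 for epcam and 1.12 for krt8, with a median of 1.62 over all genes tested. The gene krt5 thus varied most within both groups and krt8 varied least in wildtype.

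Ratios of counts within a library do not depend on scaling. The count of krt4 divided by that of krt8 was 0.426, 0.645 and 0.629 in the wildtype libraries, and 6.56, 0.287 and 0.747 in the morphant libraries. Morphant replicate 1 was the only library with more counts of krt4 than of krt8. The count of krt97 divided by that of tp63 moved much less, with overlap between the groups. It ran from 0.639 to 1.06 in wildtype and from 0.703 to 1.25 in morphants. The ratio of krt5 to tp63 was 3.35, 23.1 and 17.3 in wildtype and 50.6, 7.33 and 2.46 in morphants, so that morphant replicate 3 had the lowest and morphant replicate 1 the highest ratio of periderm to basal transcripts by this pair.

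The make-up of all keratin counts shows the same libraries from another side. The 21 keratin genes with a symbol in the table took 0.519%, 0.567% and 0.556% of all counts in wildtype replicates 1 to 3, and 2.02%, 0.485% and 0.887% in morphant replicates 1 to 3. By this share, morphant replicates 1 and 3 were above and morphant replicate 2 was below the wildtype range. With TMM scaling, the keratin sum of morphant replicate 2 (5289 CPM) lay inside the wildtype range (5210 to 6773 CPM). Among these keratin counts, krt8 held 37.8% to 43.8% in wildtype, 44.4% in morphant replicate 2 and 39.0% in morphant replicate 3, but 8.14% in morphant replicate 1. There, krt4 held 53.4% and krt5 17.1%, against 18.7% to 24.6% and 1.29% to 4.94% in wildtype.

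**Figure D2:**
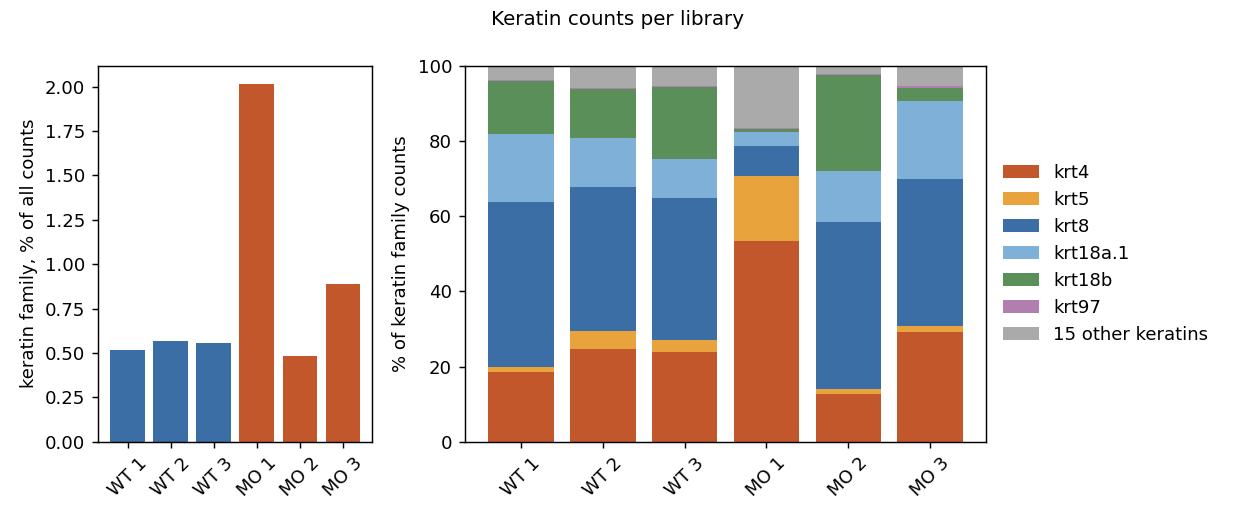
Left, counts of 21 keratin genes as a percentage of all counts in each wildtype (WT) and morphant (MO) library; right, the share of each keratin gene in those keratin counts. Morphant replicate 1 has 2.02% keratin counts, of which krt4 makes up 53.4%, while krt8 is the largest part in each of the other libraries.

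Of the 21 keratin genes, 17 passed the filter on low counts, and edgeR called 0 of them in either direction (0.0% of all genes tested were called). The log2 fold change was positive for 15 and negative for 2, and its median was 1.30, beside 53.5% positive and a median of 0.07 over all genes tested. Morphant replicate 1 was the highest of the 6 libraries for 11 of the 17 genes, as it was for 27.5% of all genes tested. Leaving out morphant replicate 1 turned the median to -0.21, and it was 0.57 when wildtype replicate 1 and 2.79 when wildtype replicate 3 was left out. At an unadjusted p under 0.05 there were 2 of the 17, krt97 and KRT222, which is near the 12.5% of all genes tested. The level of KRT222 was 2.23, 2.22 and 1.73 CPM in wildtype cells and 20.4, 1.55 and 8.96 CPM in morphant cells (log2 fold change 2.42 ± 0.75 SE, edgeR adjusted p = 0.393). Without morphant replicate 2 edgeR called 3 keratins higher (krt97, KRT222 and krt99) and 1 lower (krt18b), in a fit that called 8.19% of genes higher and 11.5% lower.

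A group of 7 keratin genes that neighbour each other in the RefSeq annotation (assembly GRCz12tu), with 0 other protein-coding genes between them, held further keratins with a high value in morphant replicate 1. In the order of the annotation they are krt1-19d, krt1-19e, krt92, cyt1l, cyt1, krt17 and krt91. The level of krt17 was 19.2, 51.2 and 63.4 CPM in wildtype cells and 511, 19.8 and 35.4 CPM in morphant cells. That of cyt1 was 41.1, 74.3 and 73.6 CPM in wildtype cells and 420, 27.1 and 102 CPM in morphant cells. The values of krt91, krt92 and cyt1l in morphant replicate 1 were 616, 517 and 340 CPM, and their wildtype values lay between 23.6 and 95.2 CPM. The cluster was not uniform, since krt1-19e had 5.25 to 11.1 CPM in wildtype cells and 12.8, 2.96 and 19.2 CPM in morphant cells, highest in morphant replicate 3. The gene krt1-19d had 24.2 CPM in morphant replicate 1 and 0.288 to 4.23 CPM in the other libraries. None of the 7 passed (edgeR adjusted p from 0.423 for cyt1 to 0.759 for krt1-19d). Keratin genes of similar sequence can share reads, and no source used here says how such reads were counted. The values of single keratins are therefore uncertain.

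Neighbouring genes also included pairs with opposite values. The genes krt5, krt8 and krt18a.1 follow each other with 0 protein-coding genes between them, yet morphant replicate 1 was the highest library for krt5 and the lowest for krt8 and krt18a.1. The type I gene krt18a.1 had 935, 835 and 711 CPM in wildtype cells and 583, 713 and 1624 CPM in morphant cells (log2 fold change 0.06 ± 0.50 SE, edgeR adjusted p = 0.962). Like krt8 it was highest in morphant replicate 3, but over the wildtype replicates it fell where krt8 rose. The count of krt8 divided by that of krt18a.1 stayed between 1.86 and 3.60 over all 6 libraries. The gene krt18b, with 1 protein-coding gene between it and krt4, had 742, 829 and 1298 CPM in wildtype cells and 124, 1351 and 263 CPM in morphant cells. Morphant replicates 1 and 3 lay below every wildtype library and morphant replicate 2 above. In edgeR the log2 fold change was -1.67 ± 0.81 (SE) over all libraries, at an adjusted p of 0.394, and -2.55 at an adjusted p of 0.00971 without morphant replicate 2. It was -0.71 at an adjusted p of 0.9998 without morphant replicate 1, and -0.72 with no term for kit. The remaining keratins tested were krt99, with 131 CPM in morphant replicate 1 and 1.24 to 11.99 CPM elsewhere, krt94 with 9.32 to 25.0 CPM, and krt15 with 0.259 to 2.80 CPM.

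**Figure D3:**
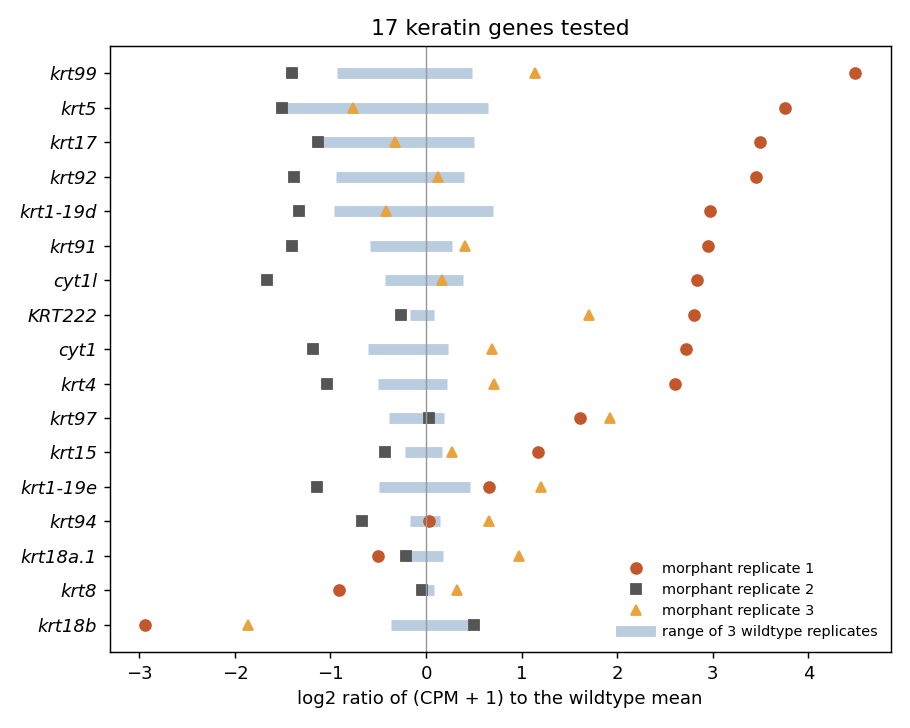
Log2 ratio of each morphant library's level (CPM + 1) to the wildtype mean (x axis) for the 17 keratin genes tested (y axis), with the range of the 3 wildtype libraries as a bar. Morphant replicate 1 lies to the right for most genes and to the left for krt18b, krt8 and krt18a.1, and krt97 is further to the right in morphant replicate 3 than in morphant replicate 1.

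Other genes of the embryonic epidermis were read from lists for surface epithelium, basal epidermis, transcription factors and epithelial junctions. Among them edgeR called 0 genes (0.0% of all genes tested), and the following values are descriptions. In surface epithelium, 12 of 14 genes tested had a positive log2 fold change and the list median was 0.94. This list shares cyt1, cyt1l, krt17 and krt18a.1 with the keratins. Relative to the wildtype mean on the log2(CPM + 1) scale, the median of this list was 1.98 in morphant replicate 1, -0.76 in morphant replicate 2 and -0.26 in morphant replicate 3. The list median of the log2 fold change was -0.38 without morphant replicate 1, 0.18 without wildtype replicate 1 and 2.02 without wildtype replicate 3. The actin regulator gene cfl1l had 64.3 ± 10.5 CPM in wildtype cells and 118 ± 72.9 CPM in morphant cells (SD, n = 3 each), or 1.04 ± 0.47 (SE) as log2 fold change. For the desmosomal plakophilin gene PKP1 the change was 0.87 ± 0.48 (SE). The membrane-binding annexin gene ANXA2 had the opposite sign, with 161, 164 and 278 CPM in wildtype cells and 49.1, 233 and 69.9 CPM in morphant cells (log2 fold change -1.30 ± 0.54 SE). It was the 1 gene of the list with an unadjusted p under 0.05 and a negative sign, as 4.92% of all genes tested were, and its low values were in morphant replicates 1 and 3.

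The basal epidermis list behaved differently by library. Its median relative to the wildtype mean was 0.87, -0.59 and 0.67 in morphant replicates 1 to 3, and 0.70, -0.45 and -0.60 in wildtype replicates 1 to 3. Wildtype replicate 1 thus stood between morphant replicates 1 and 3. The gene ITGA6, a laminin-binding integrin subunit of hemidesmosomes, had 26.2, 19.9 and 16.1 CPM in wildtype cells and 74.2, 19.2 and 74.7 CPM in morphant cells (log2 fold change 1.62 ± 0.54 SE, edgeR adjusted p = 0.393). The same measure was 0.86 ± 0.50 (SE) for its partner subunit gene ITGB4, 1.49 ± 0.67 for the matrix gene HMCN1 and 1.37 ± 0.83 for the basement membrane gene FREM2. Of the 13 genes tested, 8 were positive and the list median was 0.70 in log2 fold change, or 0.04 without morphant replicate 3.

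Transcription factors of the surface ectoderm were positive for 11 of 12 genes, with a median of 1.36 and 4 genes at an unadjusted p under 0.05, all positive (7.62% of all genes tested had a positive value with such a p). Leaving out morphant replicate 1 brought the median to 0.68, and leaving out wildtype replicate 3 brought it to 2.22. The gene TFAP2A, an AP-2 factor of ectoderm and neural crest, had 12.4, 13.3 and 15.1 CPM in wildtype cells and 68.6, 16.9 and 40.3 CPM in morphant cells. Its groups did not overlap, as for 1 of the 12 genes. Over all genes tested, 7.76% had every morphant library above every wildtype library. For TFAP2A edgeR gave a log2 fold change of 1.67 ± 0.49 (SE, adjusted p = 0.393). The grainyhead factor GRHL2, a regulator of epithelial junction genes, had 1.98 ± 0.62 (SE), and the homeobox genes DLX5 and DLX3 had 1.97 ± 0.68 and 1.61 ± 0.57, each with an edgeR adjusted p of 0.393. Their list median relative to the wildtype mean was 2.06 in morphant replicate 1, -0.13 in morphant replicate 2 and 1.01 in morphant replicate 3.

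Among epithelial junction genes, 26 of 29 were positive in log2 fold change (median 0.74). At an unadjusted p under 0.05 there was 1 of the 29, a smaller share than the 12.5% of all genes tested. That gene was spint2, a Kunitz inhibitor of surface proteases, with 15.0, 16.6 and 13.3 CPM in wildtype cells and 61.1, 13.7 and 41.2 CPM in morphant cells (log2 fold change 1.50 ± 0.49 SE, edgeR adjusted p = 0.393). The epithelial splicing regulator genes ESRP1 and ESRP2 reached 1.50 ± 0.64 and 1.13 ± 0.50 on the same scale, and the tight junction gene tjp3 1.08 ± 0.48 (SE). Without morphant replicate 1 the values of ESRP1 and ESRP2 were 0.47 and 0.53. Without morphant replicate 2 edgeR called 11 of the 29 higher and 0 lower (8.19% and 11.5% of all genes tested). The same fit called 5 of 13 transcription factors, 2 of 14 basal epidermis genes and 1 of 14 surface epithelium genes higher, and 1 surface epithelium gene, ANXA2, lower.

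**Figure D4:**
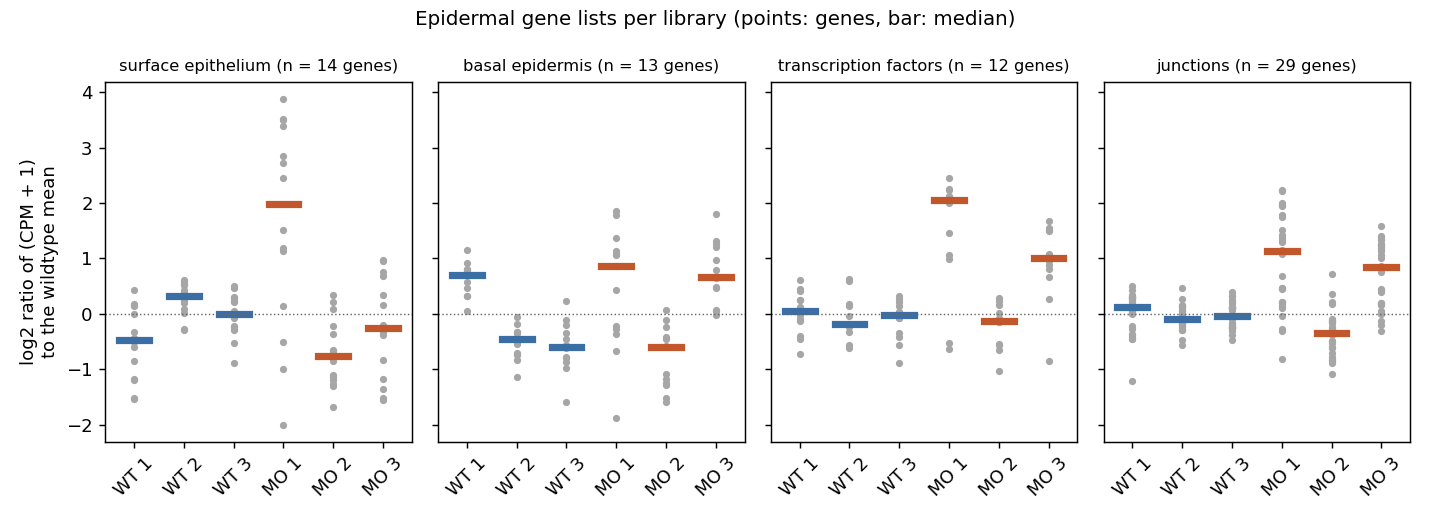
Log2 ratio of (CPM + 1) to the wildtype mean (y axis) for the genes tested of 4 epidermal lists in each wildtype (WT) and morphant (MO) library (x axis), with points for genes and a bar for the list median. The surface epithelium median is 1.98 in morphant replicate 1 and -0.26 in morphant replicate 3, while the basal epidermis medians of these libraries are 0.87 and 0.67.

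Markers of other cell types varied between the same libraries. The heart gene MYL7, whose promoter drives the reporter, had 1004, 700 and 433 CPM in wildtype cells and 385, 237 and 268 CPM in morphant cells, so that every morphant library lay below wildtype. All 10 cardiomyocyte genes tested were negative and 8 of them did the same, where 5.78% of all genes tested did. Their list summed to 3078 to 6251 CPM in wildtype cells and to 1642 to 1799.5 CPM in morphant cells. The count of krt4 divided by that of MYL7 was 0.969, 2.22 and 3.72 in wildtype and 21.8, 2.84 and 8.44 in morphants. Epithelia of pronephros and ear, which also use epcam and krt8, were read from 13 genes, of which 11 were positive, with a median of 1.84. The kidney cadherin gene CDH17 among them had 5.91, 11.9 and 7.56 CPM in wildtype cells and 81.0, 10.8 and 74.5 CPM in morphant cells. DESeq2 called 2 of the 13 higher, CDH17 among them (adjusted p = 0.022), and 0 genes of the epidermal lists, where it called 1.65% of all genes. Over 15 leukocyte genes the summed level was 5645 to 11384 CPM in wildtype cells and 1059.7, 10116.5 and 2489.5 CPM in morphant replicates 1 to 3. All 14 leukocyte genes tested were negative, among them the actin regulator gene CORO1A, the 1 that DESeq2 called (adjusted p = 0.048). The 6 endoderm genes summed to 8.40 to 12.2 CPM in wildtype cells and 371, 9.52 and 29.0 CPM in morphant cells. Of the 371 CPM in morphant replicate 1, FABP2 made up 295 CPM and FGB 42.2 CPM, while FOXA2 had 12.9, 3.11 and 12.3 CPM and foxa3 14.2, 4.75 and 14.1 CPM in the morphant libraries. All 11 neural genes, 8 of 9 skeletal muscle genes and 14 of 15 mesenchymal genes tested were positive. Their median log2 fold changes were 1.32 for neural, 1.91 for skeletal muscle and 0.76 for mesenchymal genes. The mesenchymal filament gene VIM (ENSDARG00000010008) had a log2 fold change of 1.28 ± 0.53 (SE). Of the endothelial genes tested 0 of 4 were positive (median -0.16), and of the erythroid genes 2 of 6 (median -0.14). In hatching gland, an epithelial gland at the surface of the embryo, 3 of 5 genes were positive, and in skin ionocytes 5 of 10. Relative to the wildtype mean on the log2(CPM + 1) scale, the hatching gland median was 0.61, 0.010 and 0.25 in morphant replicates 1 to 3. That of ionocytes was -0.28, 0.032 and 0.29. The summed levels of both lists, in which abundant genes weigh most, were nonetheless below every wildtype library in morphant replicates 1 and 3. These sums do not show that most genes of either list were lower. Hatching gland genes summed to 1688 to 2494 CPM in wildtype cells and 610, 2073 and 1336 CPM in morphant cells. The 12 ionocyte genes matched summed to 1968 to 2704 CPM in wildtype cells and 654, 2636 and 953 CPM in morphant cells. The part of these cell types in the values of the keratins and epidermal genes was not tested.

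Genes with the closest course over the 6 libraries were ranked by Pearson's r on log2(CPM + 1) among 8175 genes. This is a description over few libraries, which differ in kit and depth, and was not tested. The closest to krt4 was its fellow keratin cyt1 (r = 0.999), followed by CBX5 and NCAPG2 (both r = 0.998 or above). For tp63 they were trim55a, EMP2 and zgc:92429 (r from 0.997 to 0.999), and for epcam USP2, LPL and arhgap46b (r from 0.970 to 0.986). At r of at least 0.95 there were 279 genes for tp63, 122 for krt4 and 7 for epcam.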

How the data were processed

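RNA of sorted cells was sequenced in 6 libraries, 3 per group, and groups were taken from the label for experimental group. Replicates were numbered by accession, and the numbers are names only. Raw counts for each Ensembl gene were deposited, per the file headers and the values. They also deposited RPKM values, which within a gene follow count plus 1, divided between libraries in proportion to the upper quartile of counts (within 0.244%) rather than to the total, so RPKM values here order genes by length-scaled level. The base mean signal and fold (ratio) columns that the authors deposited were not used, and of the p-values the authors deposited, only adjusted ones of the 6 genes and their number are quoted. The average count columns, another unit deposited by the authors, were not used. The one headed wildtype matches the morphant mean in 100% of lines (tolerance 1%). CASAVA 1.7.0, DESeq, BWA and, as build, Zv9 are named, without their roles, per the submitters' processing notes. How reads were counted, on which annotation and with what regard to strand is not given in the sources used here.

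Symbols came from a gene name table, which matched 19189 of 27456 identifiers (69.9%). Names matched ignoring case and, where absent, without a final a or b. The main test was that of edgeR 4.0.16 under R 4.3.3 (TMM scaling, filterByExpr, terms for kit and group, two-sided quasi-likelihood F test, 3 residual degrees of freedom) on 18033 genes, with Benjamini-Hochberg adjustment over all of them and a threshold of 0.05. TMM factors ran from 0.822 to 1.29 and the biological coefficient of variation was 0.470. Log2 fold changes use a prior count of 0.125, and the SE is the fold change divided by the root of F. DESeq2 1.42.0, limma-voom (limma 3.58.1), other scalings, filters, kits and the omission of each library were alternatives. The fit was tested on simulated counts with a common dispersion and no kit effect. That test does not cover libraries of a group that diverge as the morphant libraries did. Members and the 16 gene lists were chosen with earlier results of these data known. Named are the members, keratins with a mean of at least 50 CPM (at most 10), up to 4 genes per list with the smallest p, and 3 genes of closest course for each of 3 members. Of the 74 genes so named by the first parts, a selection is described. The keratins krt1-19d, krt1-19e, krt94 and krt15 and the gene MYL7 were added after their values were seen.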

Additional observations from a re-analysis of the deposited data

How the results depend on the processing

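Each of the 6 genes held at least 164 counts in each library. In edgeR with kit term 0 genes were called, and 0 among the 6. The count over all genes was 313 in DESeq2, 44 without a filter on low counts, 4352 within the mRNA-Seq libraries (22.0% of 19818 tested) and 1 within the TruSeq libraries, and 0 to 3745 when a library was left out. The mRNA-Seq fit compares 1 morphant library with 2 of wildtype and assumes that it varies as they do. That fit called 4 of the 6 genes and 41 of 85 genes of the epidermal lists. Leaving out 1 library gave 0 to 2 of the 6 and 0 to 24 of the lists, and the 3745, the 2 and the 24 were all without morphant replicate 2. Within the mRNA-Seq libraries the log2 fold changes past the threshold were 2.67 for krt4, 3.76 for krt5, 1.74 for krt97 and 1.60 for tp63. Leaving out each library gave -0.21 to 2.69 for krt4, -1.29 to 3.79 for krt5, -0.91 to 0.013 for krt8, 0.96 to 1.77 for krt97, 0.78 to 1.73 for tp63 and -0.54 to 0.035 for epcam. The ranges were -2.70 to -0.71 for krt18b, 0.20 to 4.77 for krt99, 0.47 to 2.39 for ESRP1, 0.53 to 1.61 for ESRP2, 0.69 to 2.02 for FREM2, 0.85 to 2.37 for TFAP2A, -0.64 to 0.65 for krt18a.1, -0.49 to 3.02 for krt91, -0.27 to 2.82 for cyt1, -0.75 to 3.56 for krt92, -1.26 to 3.82 for krt17, -0.49 to 2.79 for cyt1l, -2.43 to 4.25 for krt1-19d, -0.13 to 1.02 for krt1-19e and -0.36 to 0.26 for krt94. Within the TruSeq libraries the sign turned for krt4 (-0.24), krt5 (-1.32), epcam (0.0057), krt91 (-0.52), cyt1 (-0.30), krt92 (-0.78), krt17 (-1.29), cyt1l (-0.53), krt1-19d (-2.46), krt1-19e (-0.12) and krt94 (-0.11). The sign of krt18a.1 turned with RLE size factors (-0.0052), within the mRNA-Seq libraries (-0.67), in DESeq2 (-0.037) and in limma-voom (-0.0010), and that of krt94 with RLE (-0.0052), in DESeq2 (-0.037) and in limma-voom (-0.056). The log2 fold change of krt17 was 0.17 in DESeq2 against 1.33 in edgeR over all libraries. Scaling by totals moved the median of all genes from 0.07 to 0.46 and turned epcam to 0.22. Upper quartile scaling, chosen after seeing the data, moved that median to 0.23. The cause of these moves was not tested. The genes tp63 and krt97 kept a positive sign under each of these settings. Within the TruSeq libraries, which hold 1 wildtype library, that sign rests on morphant replicate 3 alone. No paired analysis was possible because the labels give no replicate numbers.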
